A study of Mus musculus with 12 samples.

Results

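The 9 genes described here, Mecom, Prdm16, Gata2, Gata3, Erg, Meis1, Hlf, Tcf15 and Mllt3, encode transcription and chromatin regulators of haematopoietic stem cells. They were taken as a named list and matched by gene identifier and symbol, and all 9 were found among the 55487 genes listed. RNA was sequenced from bone marrow cells sorted as LSK (lineage-negative, Sca1-positive, c-Kit-positive), the fraction that holds stem cells and early progenitors. The mice were Yy1-/- Smc3+/-, Yy1-/- or Yy1+/+, with 4 libraries of each genotype, and Yy1+/+ was the wild-type control. Yy1 encodes the zinc finger transcription factor YY1 and Smc3 a core subunit of the cohesin ring, and Yy1-/- Smc3+/- and Yy1-/- are labelled as deleted for Yy1, with Yy1-/- Smc3+/- labelled as heterozygous for Smc3 as well. These 2 groups together are called deletion-labelled. The sources used here do not give the age and sex of the mice, the driver of the deletion, or whether a library came from 1 animal or from a pool.

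Blood stem cells are rare cells that can stay quiescent, renew themselves and give rise to every blood lineage. Their identity is held by a small set of transcription factors that bind together at enhancers and at each other's genes. Several of these factors are switched off as cells commit to a lineage, and several are known from leukaemia, where translocation or overexpression returns stem cell properties to progenitors.

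A table of RefSeq promoters (build GRCm38.p6), which gives 250 bases before and 50 bases after a gene's start, held 13 windows for 8 of the 9 genes. Tcf15 was not among them. The Mecom window at chr3:30509710-30510009 and the Prdm16 window at chr4:154636824-154637123, both on the minus strand, are shown because the 2 genes are paralogs and both fell. Capitals mark the longest run of letters that the windows share.
Mecom: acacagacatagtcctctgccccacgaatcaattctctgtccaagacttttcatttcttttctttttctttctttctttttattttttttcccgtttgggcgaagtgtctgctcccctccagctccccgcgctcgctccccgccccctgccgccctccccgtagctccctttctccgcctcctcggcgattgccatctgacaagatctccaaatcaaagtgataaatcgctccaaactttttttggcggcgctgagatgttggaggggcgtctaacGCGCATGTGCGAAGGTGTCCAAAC
Prdm16: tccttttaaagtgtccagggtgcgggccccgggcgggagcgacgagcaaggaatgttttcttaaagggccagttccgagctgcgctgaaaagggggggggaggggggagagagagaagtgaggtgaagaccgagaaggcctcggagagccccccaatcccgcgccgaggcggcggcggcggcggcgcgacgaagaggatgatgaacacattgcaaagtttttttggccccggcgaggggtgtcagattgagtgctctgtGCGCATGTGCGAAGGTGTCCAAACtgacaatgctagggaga
The shared run has 24 letters and lies after the start, at bases 27 to 50 of Mecom and at bases 10 to 33 of Prdm16, counted from 1 at the start. No other gene of the 27025 in the table holds it. The windows of Meis1, at chr11:19018920-19019219 on the minus strand, and of Erg, at chr16:95459299-95459598 on the minus strand, are shown as one gene that fell and one that did not pass the test. Here capitals mark matches to the letters AGATAA, which the GATA family binds, CCGGAAGT, which ETS factors bind, and TGACAG, which the MEIS family binds, on either strand.
Meis1: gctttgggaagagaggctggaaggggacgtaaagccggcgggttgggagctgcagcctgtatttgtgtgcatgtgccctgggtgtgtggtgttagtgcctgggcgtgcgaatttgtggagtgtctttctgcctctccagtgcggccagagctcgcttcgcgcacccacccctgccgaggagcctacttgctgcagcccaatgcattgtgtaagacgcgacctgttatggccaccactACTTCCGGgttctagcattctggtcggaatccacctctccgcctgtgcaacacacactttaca
Erg: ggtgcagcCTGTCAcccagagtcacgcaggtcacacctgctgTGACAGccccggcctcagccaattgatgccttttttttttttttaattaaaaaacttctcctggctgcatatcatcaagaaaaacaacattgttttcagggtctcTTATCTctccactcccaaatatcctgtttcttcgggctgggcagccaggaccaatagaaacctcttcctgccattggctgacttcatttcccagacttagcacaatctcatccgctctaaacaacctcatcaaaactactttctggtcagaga
The Meis1 window holds the ETS letters, which 3.89% of all 32851 windows hold. The Erg window shown, 1 of 3 for this gene, holds the GATA letters, found in 11.2% of all windows, and the MEIS letters at 2 places, found in 19.2%. The other Erg windows hold neither. The MEIS letters were also found in 1 window each of Mecom and Mllt3. The letters AANATGGC (YY1), which 6.05% of all windows hold, were in none of the 13 windows. The letters TTACGTAA (PAR bZIP factors such as HLF) were in none of them either, and 0.119% of all windows hold them. The E-box letters CANNTG, bound by basic helix-loop-helix factors such as TCF15, were in 9 of the 13 windows and are in 72.3% of all windows. The E-box match of Prdm16 and one of the Mecom matches lie inside the shared run. A match is a description of the letters only.

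Levels are given as CPM, the deposited expected counts scaled to a common library size. They compare libraries within a gene. Libraries held 38671354 to 69086104 expected counts in all, with Yy1+/+ replicate 2 the deepest. The label check by Yy1 itself gave 0.772, 0.795, 4.45 and 0.944 CPM in Yy1-/- Smc3+/- libraries, 0.407, 0.996, 5.01 and 12.2 CPM in Yy1-/- libraries, and 33.9, 41.3, 34.2 and 34 CPM in Yy1+/+ libraries, listed throughout by replicate number from 1 to 4. Yy1 reads above 2 CPM therefore remained in 3 libraries labelled Yy1-/-, and results are also given without them where they moved. Smc3 mRNA rose against Yy1+/+ in libraries labelled Yy1-/- Smc3+/- (log2 fold change 0.76, edgeR adjusted p = 0.00254) and in those labelled Yy1-/- (0.53, edgeR adjusted p = 0.0167). Between those labels it did not pass the test (0.24, 95% interval -0.09 to 0.56), so the mRNA level shows no reduction that would set the heterozygous label apart, and groups are named here as labelled. Of the sort markers, Kit, the gene of c-Kit, was at 180 to 373 CPM in Yy1-/- Smc3+/-, 100 to 242 CPM in Yy1-/- and 422 to 981 CPM in Yy1+/+ libraries. Ly6a, the gene of Sca1, was at 150 to 335 CPM in Yy1-/- Smc3+/-, 180 to 380 CPM in Yy1-/- and 151 to 226 CPM in Yy1+/+ libraries. Nothing in the labels says that the libraries of a genotype came from separate animals, so p-values measure the spread between these libraries. In sorted bulk cells, fewer cells of a type and less RNA per cell cannot be told apart.

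Most of the 9 genes were lower in both deletion-labelled groups. In Yy1-/- against Yy1+/+, 7 of the 9 fell, by edgeR's quasi-likelihood test with a Benjamini-Hochberg adjusted p under 0.05 over all 16649 genes tested, and 0 rose. Over all genes, 18.8% were called lower, 16.3% higher and 35.2% in either direction. The median log2 fold change of the 9 genes was -2.13, with a range of -4.93 to -0.42, where the median of all genes was 0.01. In Yy1-/- Smc3+/- against Yy1+/+, 8 of the 9 fell and 0 rose, against 16.7% of all genes called lower, 13.1% higher and 29.9% in either direction. Here the median was -1.83, with a range of -5.45 to -0.41, where the median of all genes was 0.02. Every deletion-labelled library lay below every Yy1+/+ library for 7 of the 9 genes in Yy1-/- and for 8 in Yy1-/- Smc3+/-. The same was so for 17.5% and 17.6% of all genes. Without the 3 libraries with residual Yy1 reads, 7 of the 9 fell in each comparison. The direction counts over all genes depend on the scale: log2 TPM gave 4307 lower and 1464 higher in Yy1-/- where counts gave 3132 and 2722, and 3430 lower and 1311 higher in Yy1-/- Smc3+/- where counts gave 2786 and 2189. The comparisons share their Yy1+/+ libraries, so their similarity is no separate evidence. The list was drawn up with earlier results of these data known.

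**Figure D1:**
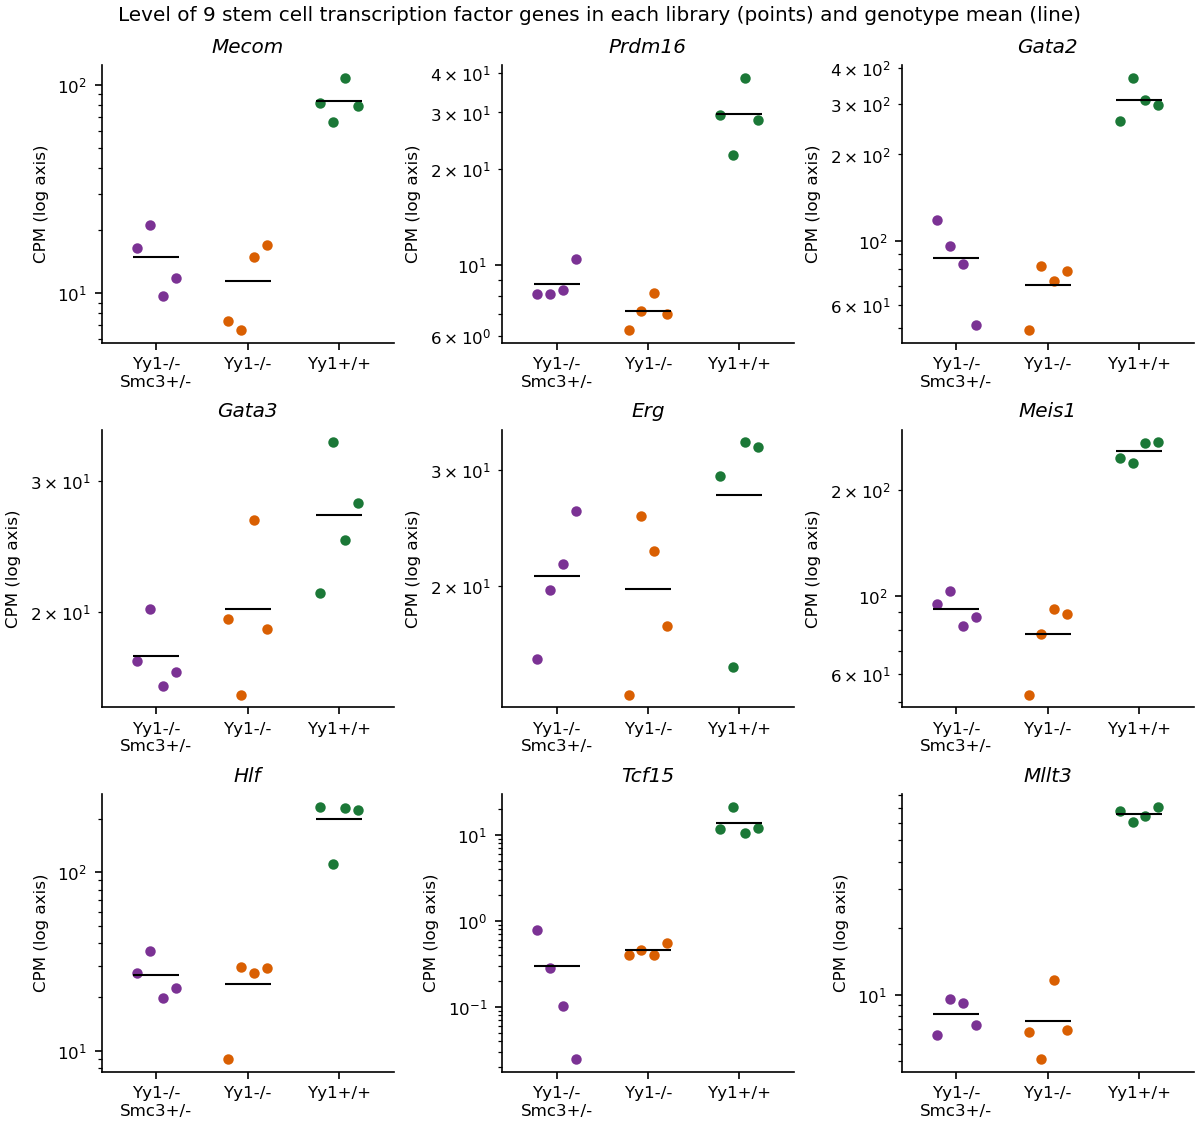
Level of each of the 9 genes in CPM, on a log axis that differs between panels, in every library of Yy1-/- Smc3+/-, Yy1-/- and Yy1+/+ (points, 4 per genotype, replicates 1 to 4 from left to right), with the genotype mean as a line. The Yy1+/+ points stand clear above the others for Mecom, Prdm16, Gata2, Meis1, Hlf, Tcf15 and Mllt3, and overlap with them for Erg, where Yy1+/+ replicate 2 is at 15.1 CPM, and for Gata3 in Yy1-/-.

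Mecom and Prdm16 encode related zinc finger proteins with a PR domain, and both are needed to maintain blood stem cells in mice. Mecom (chr3:29951296-30548008, minus strand, GRCm38) was at 16.5, 21.3, 9.73 and 11.8 CPM in Yy1-/- Smc3+/-, at 7.32, 6.64, 14.9 and 17.1 CPM in Yy1-/-, and at 81.4, 66.4, 108 and 79.4 CPM in Yy1+/+. The deletion-labelled groups overlapped with each other and not with Yy1+/+. Against Yy1+/+, the log2 fold change of Mecom was -2.50 with a standard error (SE) of 0.32 in Yy1-/- Smc3+/- (edgeR adjusted p = 0.000135) and -2.87 ± 0.33 SE in Yy1-/- (edgeR adjusted p = 5.31e-05), so it fell in both. Later values in the same form are log2 fold changes against Yy1+/+ with their SE. Among the Yy1-/- libraries, the pair with more Yy1 reads, replicates 3 and 4, was also the pair with more Mecom, while in Yy1-/- Smc3+/- the library with the most Yy1 reads, replicate 3, had the least Mecom. Without the libraries with residual Yy1 reads the log2 fold change in Yy1-/- was -3.62. The Yy1-/- libraries kept in that fit had sums of monocyte markers of 5643 and 3887 CPM, and the pair left out 509 and 822 CPM. Whether Yy1 reads or monocyte markers play a part in the level of Mecom was not tested. Prdm16 (chr4:154316125-154636873, minus strand) was at 8.09, 8.09, 8.35 and 10.4 CPM in Yy1-/- Smc3+/-, at 6.25, 7.17, 8.15 and 7.04 CPM in Yy1-/-, and at 29.5, 22.1, 38.5 and 28.4 CPM in Yy1+/+. Its spread within the deletion-labelled groups was small, with a coefficient of variation of 12.9% and 10.9%, against 22.7% in Yy1+/+. Prdm16 fell in Yy1-/- Smc3+/- (-1.76 ± 0.20 SE, edgeR adjusted p = 6.23e-05) and in Yy1-/- (-2.05 ± 0.21 SE, edgeR adjusted p = 2.51e-05).

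Gata2 and Gata3 encode zinc finger factors that bind GATA letters. GATA2 is required for the emergence and survival of blood stem cells, and GATA3 is best known as a regulator of T cells and innate lymphoid cells that is also present in stem cells. Gata2 (chr6:88193891-88207032, plus strand) was at 118, 96.2, 83.3 and 51 CPM in Yy1-/- Smc3+/-, at 49.1, 81.9, 72.5 and 78.5 CPM in Yy1-/-, and at 262, 369, 310 and 296 CPM in Yy1+/+. It fell in both, with a log2 fold change of -1.83 ± 0.23 SE in Yy1-/- Smc3+/- (edgeR adjusted p = 0.000125) and of -2.13 ± 0.24 SE in Yy1-/- (edgeR adjusted p = 4.19e-05). Gata3 (chr2:9857078-9890034, minus strand) differed far less, at 17.2, 20.2, 15.9 and 16.6 CPM in Yy1-/- Smc3+/-, 19.6, 15.5, 26.6 and 19 CPM in Yy1-/-, and 21.2, 33.8, 25 and 28 CPM in Yy1+/+. The Yy1-/- libraries overlapped with Yy1+/+ through replicate 3, and the Yy1-/- Smc3+/- libraries did not. Gata3 fell in Yy1-/- Smc3+/- (-0.63 ± 0.20 SE, edgeR adjusted p = 0.0313), and its value in Yy1-/- was -0.42 ± 0.20 SE (edgeR adjusted p = 0.117). The call in Yy1-/- Smc3+/- lay near the threshold. It was lost without replicate 1, 3 or 4 of that genotype, without Yy1+/+ replicate 2 or 4, and when the libraries with residual Yy1 reads were dropped. Over its alternatives, fitted with edgeR, DESeq2 or limma, adjusted p was between 0.0116 and 0.0799 and the log2 fold change between -0.75 and -0.50. In Yy1-/- the call was gained without replicate 3 (-0.58, edgeR adjusted p = 0.0432) and with log2 TPM (-0.66, limma adjusted p = 0.0238). Whether Gata3 differs between the deletion-labelled groups is addressed by their own comparison, where its log2 fold change was -0.21 (95% interval -0.64 to 0.23).

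Erg (chr16:95359169-95586593, minus strand) encodes an ETS family factor needed for stem cell self-renewal, and passed the test in neither group. It was at 15.5, 19.7, 21.6 and 26 CPM in Yy1-/- Smc3+/-, at 13.7, 25.5, 22.6 and 17.4 CPM in Yy1-/-, and at 29.3, 15.1, 33 and 32.5 CPM in Yy1+/+. A single wild-type library, Yy1+/+ replicate 2, lay among the others, while Yy1+/+ replicates 1, 3 and 4 lay above every deletion-labelled library. The log2 fold change was -0.41 ± 0.27 SE in Yy1-/- Smc3+/- (edgeR adjusted p = 0.28, 95% interval -0.99 to 0.17) and -0.46 ± 0.27 SE in Yy1-/- (edgeR adjusted p = 0.199, 95% interval -1.04 to 0.12). These intervals leave out falls as large as those of Mecom, Prdm16 or Gata2. Without Yy1+/+ replicate 2 the value in Yy1-/- passed the test (-0.67, edgeR adjusted p = 0.037), with adjusted p between 0.037 and 0.381 over its alternatives.

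Meis1 and Hlf encode a homeodomain factor of the TALE class and a PAR bZIP factor, both known for keeping stem cells quiescent in mice and both involved in leukaemia. Meis1 (chr11:18879817-19018985, minus strand) was at 94.9, 103, 82.4 and 86.9 CPM in Yy1-/- Smc3+/-, at 52.5, 78.1, 91.6 and 88.9 CPM in Yy1-/-, and at 246, 238, 270 and 272 CPM in Yy1+/+. The 4 wild-type libraries lay close together and far above the rest. Meis1 fell in Yy1-/- Smc3+/- (-1.48 ± 0.16 SE, edgeR adjusted p = 4.35e-05) and in Yy1-/- (-1.72 ± 0.16 SE, edgeR adjusted p = 1.66e-05). An antisense gene, Gm16140, shares 896 exon bases with Meis1 and fell as well, with log2 fold changes of -1.65 in Yy1-/- Smc3+/- and -2.10 in Yy1-/-. The library kit does not mark strand, so reads of the shared bases cannot be assigned to one gene with certainty. As assigned in the deposited counts, Gm16140 reached at most 16.5 CPM, below every Meis1 value. That level itself depends on how reads of the shared bases were assigned. Hlf (chr11:90336536-90390895, minus strand) was at 27.4, 36, 19.8 and 22.3 CPM in Yy1-/- Smc3+/-, at 8.95, 29.5, 27.2 and 29 CPM in Yy1-/-, and at 233, 112, 229 and 224 CPM in Yy1+/+. A low library stood out in Yy1-/- (replicate 1) and in Yy1+/+ (replicate 2), and even that wild-type library was above every deletion-labelled library. Hlf fell in Yy1-/- Smc3+/- (-2.92 ± 0.35 SE, edgeR adjusted p = 8.66e-05) and in Yy1-/- (-3.07 ± 0.36 SE, edgeR adjusted p = 5.62e-05).

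Tcf15, a basic helix-loop-helix gene that marks quiescent long-term stem cells in mice, fell the most of the 9. Its expected counts (chr2:152143561-152149097, plus strand) were 36, 12, 4 and 1 in Yy1-/- Smc3+/-, 16, 23, 18 and 23 in Yy1-/-, and 625, 1334, 484 and 539 in Yy1+/+. In CPM these were 0.794, 0.281, 0.103 and 0.0248 in Yy1-/- Smc3+/-, 0.407, 0.458, 0.404 and 0.549 in Yy1-/-, and 11.7, 21.1, 10.4 and 12.1 in Yy1+/+. Very few reads were left in the deletion-labelled libraries, evenly so in Yy1-/- and unevenly in Yy1-/- Smc3+/-, where replicate 4 had an expected count of 1. Tcf15 fell in Yy1-/- Smc3+/- (-5.45 ± 0.49 SE, edgeR adjusted p = 6.94e-06) and in Yy1-/- (-4.93 ± 0.45 SE, edgeR adjusted p = 7.95e-06). Without Yy1-/- Smc3+/- replicate 1, the first value was -6.61. Mllt3, which encodes a reader of acylated histones that works with the elongation machinery and with DOT1L, is known to sustain stem cell self-renewal. Mllt3 (chr4:87769925-88033364, minus strand) was at 6.53, 9.57, 9.16 and 7.25 CPM in Yy1-/- Smc3+/-, at 6.79, 5.1, 11.7 and 6.93 CPM in Yy1-/-, and at 68, 60.8, 64.5 and 70.9 CPM in Yy1+/+. The wild-type libraries spread little and no deletion-labelled library came near them. Mllt3 fell in Yy1-/- Smc3+/- (-3.02 ± 0.23 SE, edgeR adjusted p = 4.05e-06) and in Yy1-/- (-3.11 ± 0.24 SE, edgeR adjusted p = 3.51e-06). With gene length taken into account, the value in Yy1-/- Smc3+/- was -3.93 with an effective length offset and -3.81 with log2 TPM.

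**Figure D2:**
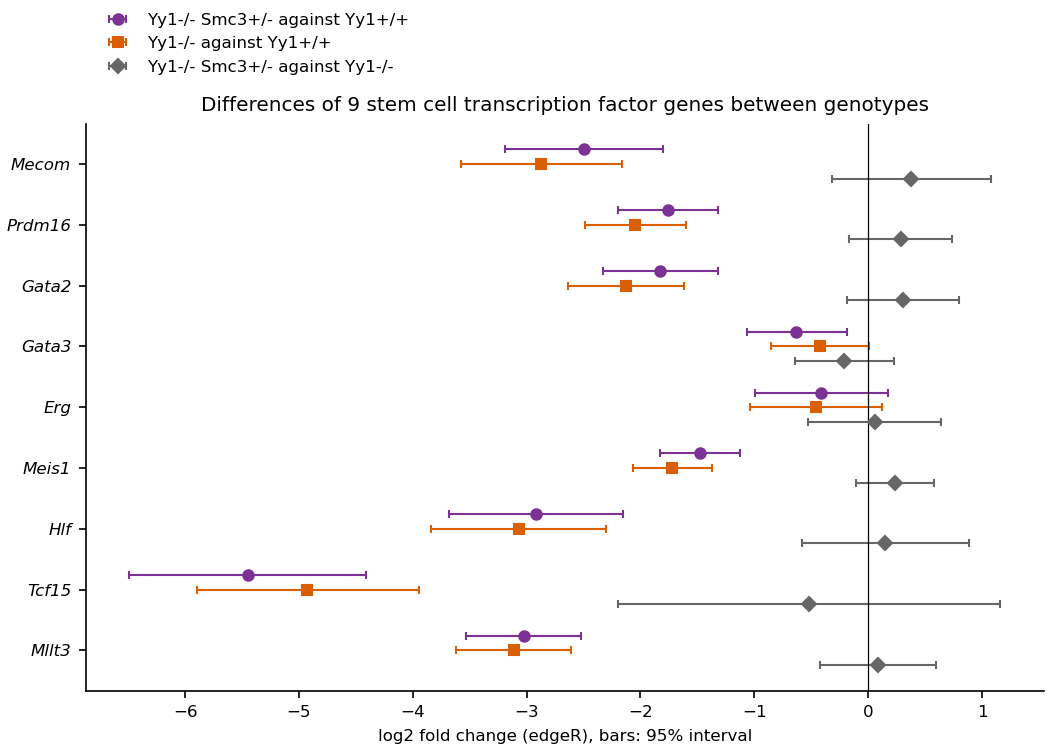
Log2 fold changes of the 9 genes with 95% intervals from the edgeR model, for Yy1-/- Smc3+/- against Yy1+/+ (circles), Yy1-/- against Yy1+/+ (squares) and Yy1-/- Smc3+/- against Yy1-/- (diamonds). Tcf15 lies farthest below 0 in both comparisons with Yy1+/+, at -5.45 and -4.93, Gata3 and Erg lie nearest to 0, and all intervals of the comparison between the deletion-labelled groups include 0.

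None of the 9 genes passed the test between Yy1-/- Smc3+/- and Yy1-/-. By edgeR 0 of 9 were called, 0 had an unadjusted p under 0.05 and DESeq2 also called 0. Of all genes 0.036% were called, which is 6 genes, all higher in Yy1-/- Smc3+/-. DESeq2 called 53 of all genes, 19 lower and 34 higher, and without the libraries with residual Yy1 reads edgeR called 307, of which 273 were lower and 34 higher, none of them among the 9. The median log2 fold change was 0.15, with a range of -0.52 for Tcf15 to 0.38 for Mecom. Without the libraries with residual Yy1 reads the median of the 9 genes was 0.39. The widest intervals were those of Tcf15, -2.20 to 1.16, and Hlf, -0.58 to 0.89, and the narrowest was that of Meis1, -0.11 to 0.58. For Mecom the interval was -0.32 to 1.08, for Mllt3 -0.42 to 0.60, for Prdm16 -0.17 to 0.74, for Gata2 -0.19 to 0.80 and for Erg -0.53 to 0.64. Over the 17 alternatives the Mecom value lay between 0.15 and 1.24, so the highest lay above its interval. Differences within these intervals are compatible with the values of 4 libraries a group, and the intervals are no limit of detection.

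Differences within a genotype were unequal between genes. Yy1-/- replicate 1 had the lowest value of its genotype for 5 of the 9 genes, Prdm16, Gata2, Erg, Meis1 and Hlf. In the wild type, Yy1+/+ replicate 2 had the lowest value for 6 genes and the highest for the other 3, Gata2, Gata3 and Tcf15. Yy1-/- Smc3+/- replicate 2 had the highest value for 5 genes, and replicate 3 the lowest for 4, Mecom, Gata3, Meis1 and Hlf. That replicate also stood apart in its sum of neutrophil and granule markers, at 16672 CPM where the other 3 libraries of its genotype were at 1779 to 2506 CPM. Taking each gene relative to its Yy1+/+ mean, the median over the 9 genes was -1.84, -1.84, -1.88 and -2.59 on the log2 scale across the Yy1-/- Smc3+/- libraries and -2.64, -2.01, -2.08 and -2.04 across the Yy1-/- libraries. The Yy1+/+ libraries lay between -0.12 and 0.08.

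**Figure D3:**
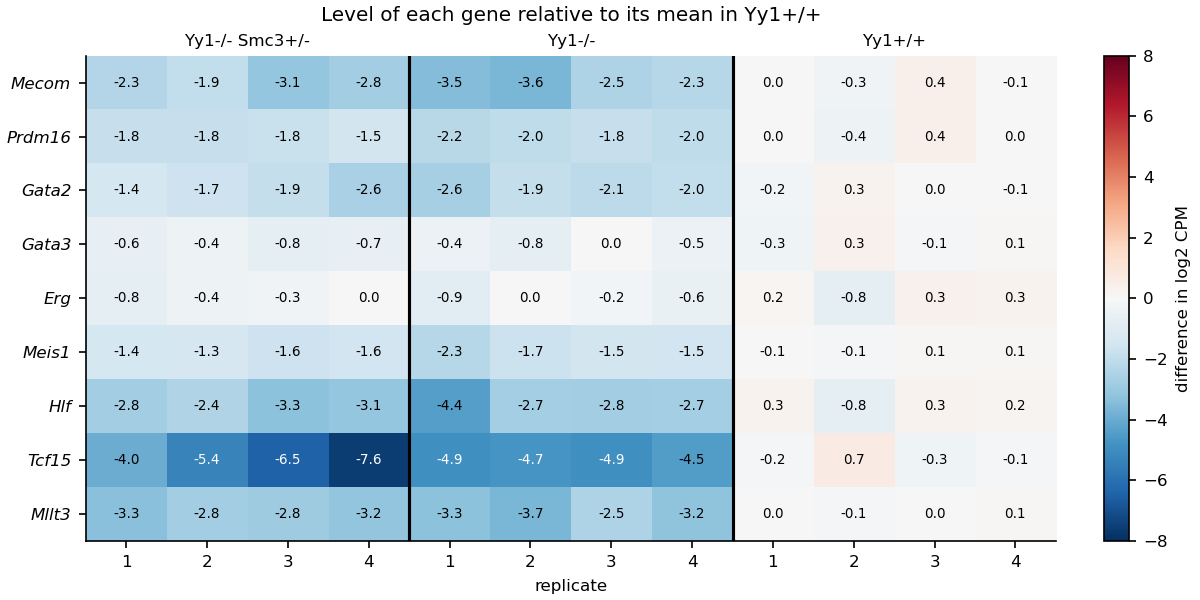
Difference in log2 CPM of each of the 9 genes (rows) from its mean in Yy1+/+, in each library (columns, replicates 1 to 4 of Yy1-/- Smc3+/-, Yy1-/- and Yy1+/+). Blue is lower and red is higher. Tcf15 is the darkest row, Gata3 and Erg are pale throughout, and Hlf is lowest in Yy1-/- replicate 1 and low in Yy1+/+ replicate 2.

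Levels between genes were compared per length, in TPM, the deposited abundance corrected for transcript length. The summed TPM of the 9 genes was 111 ± 20.2 in Yy1-/- Smc3+/-, 94.7 ± 26 in Yy1-/- and 462 ± 62.4 in Yy1+/+ (SD, n = 4 each). In Yy1+/+ the order of mean TPM was Gata2 145, Meis1 118, Hlf 52.9, Mecom 41.9, Mllt3 37.8, Tcf15 27.8, Erg 20, Gata3 12.7 and Prdm16 5.09, and neighbours overlapped in their library ranges except Meis1 with Hlf and Gata3 with Prdm16. In both deletion-labelled groups, Meis1 and Gata2 still led, at 36.6 and 36.5 TPM in Yy1-/- Smc3+/- and at 29.5 and 28 TPM in Yy1-/-, with ranges that overlap. Erg stood next, at 12.6 TPM in Yy1-/- Smc3+/- and 12.8 TPM in Yy1-/-, while Tcf15 was last, at 0.545 and 0.785 TPM. The share of Erg in the summed TPM was 11.8% in Yy1-/- Smc3+/-, 13.8% in Yy1-/- and 4.2% in Yy1+/+. The share of Hlf was 5.41% in Yy1-/- Smc3+/-, 5.2% in Yy1-/- and 11.2% in Yy1+/+. That of Mllt3 was 2.08% in Yy1-/- Smc3+/-, 3.35% in Yy1-/- and 8.24% in Yy1+/+, and that of Tcf15 was 0.455% in Yy1-/- Smc3+/-, 0.857% in Yy1-/- and 6.25% in Yy1+/+.

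The deposited tables also give a transcript length per gene, weighted by the abundance of its isoforms, which moves when isoform use moves. Gata3, Hlf and Tcf15 have 1 listed transcript and could not vary. Mllt3 has transcripts of 6069, 1956, 794 and 422 bases. Its weighted length was 4770, 4766, 3950 and 5636 bases in Yy1-/- Smc3+/-, 4282, 3147, 2547 and 3069 bases in Yy1-/-, and 2658, 2458, 2892 and 2901 bases in Yy1+/+. All Yy1-/- Smc3+/- libraries were longer than all Yy1+/+ libraries, and the mean was 4780 ± 688 against 2727 ± 212 bases (SD, n = 4 each; exact permutation test, two-sided p = 0.0286, the smallest that 4 against 4 libraries allow). Adjusted over the 18 tests of 6 genes and 3 comparisons the p was 0.129, and no test passed. With so high a smallest p, a test could pass only if most of the 18 reached it. The adjusted values therefore decide nothing about isoform use. The Yy1-/- libraries, at 3261 ± 730 bases, overlapped with Yy1+/+. Erg was shorter in Yy1-/-, at 2074 ± 79.4 bases, than in Yy1+/+, at 2286 ± 99.2 bases, with no overlap (exact p = 0.0286, adjusted p = 0.129). In Yy1-/- Smc3+/- it was 2322 ± 60.3 bases, which did not overlap with Yy1-/- (exact p = 0.0286, adjusted p = 0.129). Mecom, with transcripts of 348 to 5692 bases, ranged from 1963 to 3464 bases in Yy1-/- Smc3+/-, from 2165 to 3785 bases in Yy1-/- and from 2942 to 3232 bases in Yy1+/+, so the range was wider in the deletion-labelled groups. Lengths there rest on fewer reads. Mecom had 288 to 910 expected counts in deletion-labelled libraries and 3523 to 5038 in Yy1+/+ libraries. For Mllt3 these were 256 to 522 and 2994 to 3850. Whether the number of reads plays a part in the spread of the lengths was not tested.

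**Figure D4:**
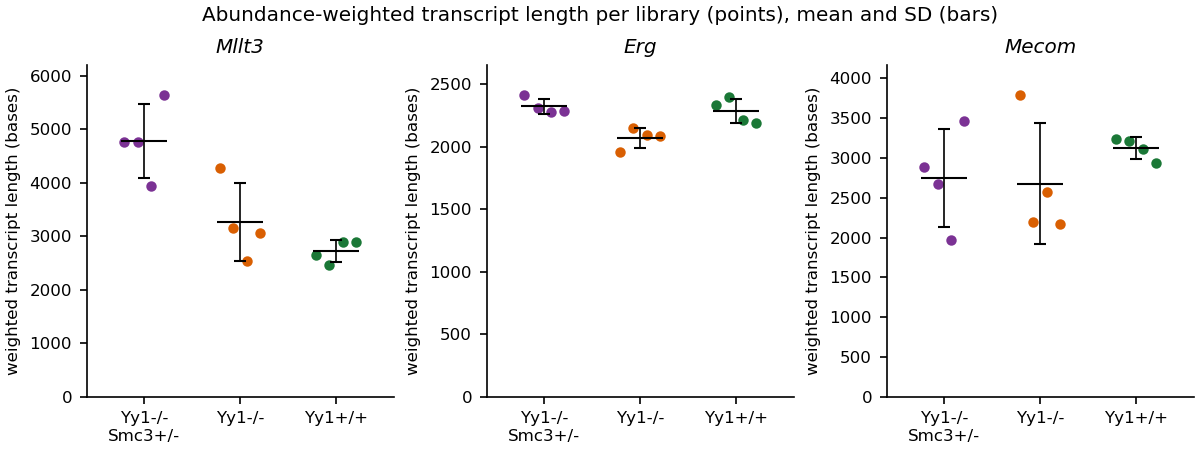
Abundance-weighted transcript length in bases of Mllt3, Erg and Mecom in each library (points), with genotype mean and SD (bars, n = 4). Mllt3 is longer in all Yy1-/- Smc3+/- libraries than in all Yy1+/+ libraries, Erg is shorter in Yy1-/- than in either other genotype, and Mecom varies most in Yy1-/-.

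Genes that lie close to the 9 by profile were found by the mean absolute difference, over the 12 libraries, of log2 levels set to 0 at the Yy1+/+ mean. Over 10702 genes compared, the nearest to the median profile of the 9 were Emid1 (0.17), Map7 (0.17), Adgrg1 (0.18), H2-Q5 (0.19) and Zfp157 (0.20). The nearest single genes were Nedd4 to Mecom (0.23), Sgms1 to Prdm16 (0.18), Prkch to Gata2 (0.15), Paip2 to Gata3 (0.11), Manea to Erg (0.12), Selenon to Meis1 (0.10), Mamdc2 to Hlf (0.22) and Als2cl to Mllt3 (0.33). Among these 8 genes the nearest gene was farthest away for Mllt3 and closest for Meis1, Gata3 and Erg. These are descriptions of the libraries and carry no test.

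Other regulators of the same network were counted from lists chosen with earlier results known. Pairs of values in parentheses are log2 fold changes in Yy1-/- Smc3+/- and then in Yy1-/-, each against Yy1+/+. The counts stand against 16.7% of all genes called lower and 13.1% higher in Yy1-/- Smc3+/-, and 18.8% lower and 16.3% higher in Yy1-/-. Of 18 family relatives of the 9 genes 10 were too low to test, and of the other 8 none rose and 3 fell in each comparison with Yy1+/+: Gata1 (-2.41 in Yy1-/- Smc3+/-, -1.77 in Yy1-/-), the erythroid GATA factor, Dbp (-1.65 and -1.12), a PAR bZIP factor like HLF, and Fli1 (-0.43 and -0.43), an ETS factor like ERG. The median was -0.27 in Yy1-/- Smc3+/- and -0.42 in Yy1-/-. Without Yy1+/+ replicate 2, 5 relatives were called in Yy1-/-. Of the 11 partners of the ERG and GATA2 stem cell complex (the heptad of TAL1, LYL1, LMO2, RUNX1 and others with the LDB1 bridge), 5 fell and 1 rose in Yy1-/- Smc3+/- and 5 fell and 0 rose in Yy1-/-, with medians of -0.23 and -0.43. Lmo2, a bridging protein, fell (-1.15 and -1.13), Tal1, a basic helix-loop-helix factor (-1.08 and -1.18), and Zfpm1, the GATA cofactor FOG1 (-1.79 and -2.48). Cbfb, the partner of RUNX1, rose in Yy1-/- Smc3+/- (0.34). The Yy1-/- Smc3+/- count of 6 calls was 3 without Yy1-/- Smc3+/- replicate 4 and 3 without Yy1+/+ replicate 3.

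Of 10 TALE and Hox partners of MEIS1, 3 fell in Yy1-/- Smc3+/- and 5 in Yy1-/-, with 0 rising and medians of -0.34 and -0.62. Hoxa9, the classic partner of MEIS1 in leukaemia, fell (-1.15 and -1.52). Hoxb6 was at 0 CPM in 3 Yy1-/- Smc3+/- libraries and 0.0248 in the last, at 0.0199 to 0.215 CPM in Yy1-/-, and at 0.553 to 1.24 CPM in Yy1+/+. With log2 TPM 5 were called in Yy1-/- Smc3+/-. Of 18 elongation and DOT1L partners of MLLT3, 4 fell and 1 rose in Yy1-/- Smc3+/- and 4 fell and 0 rose in Yy1-/-, with medians of -0.15 and -0.45. These shares, 5 and 4 of 18, do not exceed the 29.9% and 35.2% of all genes called in either direction. Men1, a subunit of MLL complexes, fell (-0.97 and -1.14) and Ell, an elongation factor (-0.78 and -1.02), while Ccnt2, a cyclin of the elongation kinase, fell (-0.59 and -0.67). Eaf2, a partner of ELL, rose in Yy1-/- Smc3+/- (1.24). The Yy1-/- Smc3+/- count of 5 calls was 3 without Yy1-/- Smc3+/- replicate 1, 2 or 4 and 2 without Yy1+/+ replicate 1, 3 or 4, and the Yy1-/- count of 4 was 7 without Yy1-/- replicate 4.

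Of 9 corepressors of MECOM and PRDM16, 0 fell and 1 rose in Yy1-/- Smc3+/- and 3 fell and 1 rose in Yy1-/-, with medians of -0.13 and -0.10. Suv39h1, a histone methyltransferase, rose (0.38 and 0.33), and Ehmt1 and Ehmt2, another pair of histone methyltransferases, fell in Yy1-/- (-0.75 and -0.49). The 4 calls in Yy1-/- were 2 without Yy1-/- replicate 1 or 3 or Yy1+/+ replicate 1, 3 or 4, and the call in Yy1-/- Smc3+/- was lost without replicate 1 or 2 of that genotype or Yy1+/+ replicate 1 or 4, with log2 TPM, with an effective length offset and with no filter. It was 2 calls with DESeq2, with only the 2 genotypes fitted, without the libraries with residual Yy1 reads, without Yy1-/- Smc3+/- replicate 3 and without Yy1+/+ replicate 2. Of 3 E proteins, which pair with TCF15, Tcf3 fell in Yy1-/- (-0.46), a call that was lost without Yy1-/- replicate 1, 2 or 3, without any single Yy1+/+ library, with only the 2 genotypes fitted and with the older quasi-likelihood form, and 0 were called in Yy1-/- Smc3+/-.

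Of 20 other stem cell transcription factors, 9 fell in Yy1-/- Smc3+/- and 13 in Yy1-/-, with 0 rising and medians of -0.80 and -0.82. These calls include Egr1 and Nr4a1 in Yy1-/- and Nr4a2 in both. Their coefficients of variation in Yy1+/+ were 108%, 170% and 143%, each with its highest value in replicate 2. Egr1 and Nr4a1 overlapped between Yy1-/- and Yy1+/+ libraries, and Nr4a2 between Yy1-/- Smc3+/- and Yy1+/+ libraries. Hoxb5, a marker of long-term stem cells in mice, fell (-2.85 and -2.42), Nkx2-3, a homeobox gene (-2.04 and -2.27), Gfi1b, a zinc finger repressor (-1.86 and -2.06), and Rora, a nuclear receptor (-1.85 and -1.56). Of 14 lineage transcription factors tested, 1 fell and 5 rose in each comparison, with medians of 0.56 and 0.77. Id2, an inhibitor of E proteins, rose (1.55 and 2.35), Cebpa, a granulocyte and monocyte factor (1.33 and 1.21), and Spi1, the myeloid factor PU.1 (0.76 and 0.95). Ebf1, a B cell factor, rose in Yy1-/- Smc3+/- (2.76), and Gata1 was the one that fell. Of 9 genes reported as targets of one of the 9 factors, 4 fell and 1 rose in Yy1-/- Smc3+/- and 5 fell and 1 rose in Yy1-/-, with medians of -0.47 and -0.59. Kit, a target of GATA2, fell (-1.65 and -2.12), and Bcl2, a survival gene, rose (1.33 and 1.01). In Yy1-/- Smc3+/-, 3 targets were called without replicate 4 or without Yy1+/+ replicate 1, 3 or 4.

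**Figure D5:**
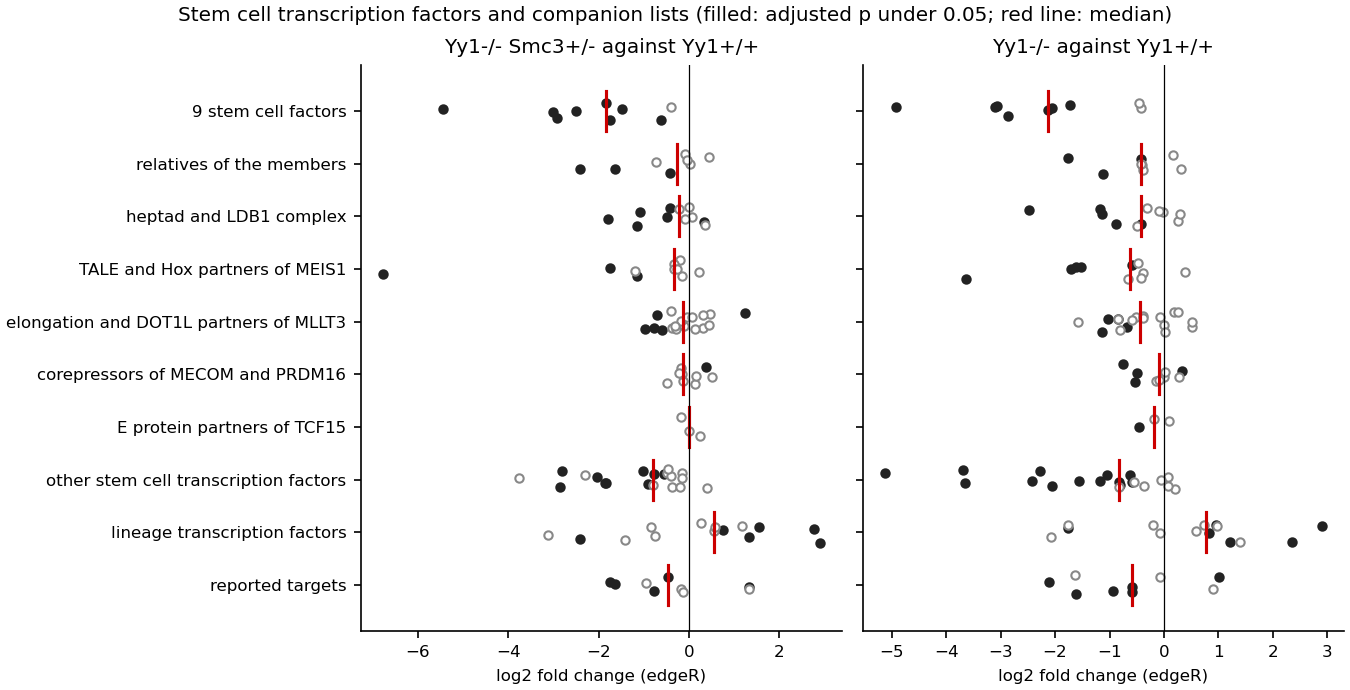
Log2 fold changes of the genes tested in each list (points), in Yy1-/- Smc3+/- (left) and Yy1-/- (right), each against Yy1+/+. Filled points have an adjusted p under 0.05, and the red line is the list's median. The 9 stem cell factors have the lowest medians, -1.83 and -2.13, although single genes of other lists lie lower, and only the lineage transcription factors have medians above 0, 0.56 and 0.77, with 5 of 14 below 0 in each comparison. The axes of the panels differ.

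Markers of stem cells and of other cell types also differed between the genotypes, where 13.1% of all genes were called higher and 16.7% lower in Yy1-/- Smc3+/-, and 16.3% higher and 18.8% lower in Yy1-/-. Of 9 stem cell surface markers, 8 fell in both comparisons, and their summed level was 940 to 1087 CPM in Yy1-/- Smc3+/-, 995 to 1229 CPM in Yy1-/- and 1693 to 2160 CPM in Yy1+/+. Cd34, which makes up most of that sum, did not pass the test. Of 8 T cell and innate lymphoid markers 6 rose in both, with sums of 47.3 to 101 CPM in Yy1-/- Smc3+/-, 25.7 to 89.9 CPM in Yy1-/- and 38.1 to 58 CPM in Yy1+/+, and GATA3 is a factor of these cells. In Yy1+/+, 5 of these markers were under 1 CPM in every library. Lck, which made up most of the Yy1+/+ sum, did not rise, with means of 35 CPM in Yy1-/- Smc3+/-, 21.5 CPM in Yy1-/- and 42.9 CPM in Yy1+/+. Of 6 monocyte markers 2 rose in Yy1-/- Smc3+/- and 4 in Yy1-/-, with sums of 635 to 1210 CPM in Yy1-/- Smc3+/-, 509 to 5643 CPM in Yy1-/- and 487 to 1222 CPM in Yy1+/+. Yy1-/- replicates 1 and 2 had the sums of 5643 and 3887, where replicate 1 had the lowest Hlf, Gata2, Meis1, Erg and Prdm16 of its genotype and replicate 2 the highest Hlf, Gata2 and Erg. Of 7 neutrophil and granule markers 1 rose in each comparison, with sums of 1779 to 16672 CPM in Yy1-/- Smc3+/-, 4336 to 7136 CPM in Yy1-/- and 2651 to 9928 CPM in Yy1+/+. Mpo, which encodes the granule enzyme myeloperoxidase, was at 10068 CPM in Yy1-/- Smc3+/- replicate 3 and at 565 to 981 CPM in the other libraries of that genotype. Of 8 endothelial markers, whose cells also use Mecom, Gata2 and Erg, 2 fell in each comparison and 1 rose in Yy1-/-. The sums of these markers were 96 to 160 CPM in Yy1-/- Smc3+/-, 92.3 to 120 CPM in Yy1-/- and 222 to 249 CPM in Yy1+/+. Pecam1, the most abundant, had means of 81.6 CPM in Yy1-/- Smc3+/-, 70 CPM in Yy1-/- and 82.1 CPM in Yy1+/+. In the same order Tie1 had means of 29, 23.5 and 126 CPM, and Emcn of 2.45, 3.05 and 20.1 CPM. Cdh5, the defining marker, was named after its values were seen. It was at 0.129 to 0.323 CPM in Yy1-/- Smc3+/-, 0.0478 to 1.22 CPM in Yy1-/- and 0 to 0.129 CPM in Yy1+/+. Of 8 lineage antigen genes 7 could be tested, and 1 fell and 1 rose in Yy1-/- Smc3+/- and 1 fell and 2 rose in Yy1-/-. The sums of these genes were 254 to 408 CPM in Yy1-/- Smc3+/-, 281 to 641 CPM in Yy1-/- and 222 to 296 CPM in Yy1+/+. Among them Itgam was at 305, 212, 60.7 and 76.6 CPM in Yy1-/- libraries, with means of 88.3 CPM in Yy1-/- Smc3+/- and 41.7 CPM in Yy1+/+. Of 6 B cell markers 5 could be tested, and 2 rose in Yy1-/- Smc3+/- and 0 in Yy1-/-. Of 7 megakaryocyte markers 6 could be tested, and 2 fell in Yy1-/- Smc3+/- and 3 in Yy1-/-. Of 7 erythroid markers 2 fell in Yy1-/- Smc3+/- and 1 in Yy1-/-, with sums of 84.1 to 332 CPM in Yy1-/- Smc3+/-, 84.7 to 458 CPM in Yy1-/- and 424 to 1015 CPM in Yy1+/+. Of 8 mast cell and basophil markers, whose cells use Gata2, 3 fell and 2 rose in each comparison, with sums of 70.8 to 147 CPM in Yy1-/- Smc3+/-, 56.2 to 131 CPM in Yy1-/- and 34 to 221 CPM in Yy1+/+. Their part in the results of the 9 genes was not tested.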

How the data were processed

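Each of the 12 deposited tables is an RSEM gene table. The authors' expected counts are, per the file headers, estimated reads per gene, unscaled for depth or length. The deposited TPM is abundance corrected for length, and the deposited length and effective length columns, which have no other unit than bases, give the abundance-weighted transcript length and its effective form, per the file headers. STAR 2.5.2b and RSEM 1.3.0 are named in the submitters' processing notes with build mm10. The sources used here give no settings for them. The library kit was SMART-Seq v4, per the labels' protocols.

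Symbols and positions came from GENCODE annotation of GRCm38. Of the gene identifiers 55094 matched in full, 300 in another version and 93 not at all. After rounding, expected counts went into edgeR 4.0.16 (R 4.3.3), whose filter (at least 10 counts in enough libraries, 15 in all) kept 16649 genes. TMM factors were used, and 1 quasi-likelihood model was fitted to all 12 libraries, with Benjamini-Hochberg adjustment over all genes. CPM uses the TMM factors. Intervals are at 95%. The step was tested on simulated data. Weighted lengths were compared with exact permutation tests in SciPy 1.17.1 for genes with at least 10 expected counts in every library compared. The likeness search kept genes averaging 5 CPM or more in 1 genotype.

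The members and lists were chosen with earlier results of these data known. Named are the 9 genes, Yy1 and Smc3, of each companion list up to 3 called genes with the smallest p per comparison and up to 2 called in the other direction, of the markers the most abundant and those a result touches, the nearest genes by profile, and overlapping genes. Alternatives were RLE factors, DESeq2 1.42.0, no filter, a stricter filter of 1 CPM in 4 libraries, limma 3.58.1 on log2(TPM + 0.5), an effective length offset, only the genotypes compared, no libraries with residual Yy1 reads, leaving out each library and, added after seeing the data, the older quasi-likelihood form of edgeR. Some genes that this rule would name are not reported here.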

Additional observations from a re-analysis of the deposited data

Results flagged for a closer look

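Among 27 groups of 4 libraries by CPM and 18 by weighted transcript length, 4, all by CPM, held a library whose distance from the others was large against the range of its group, where chance gives about 1 in 20. Prdm16 was at 10.4 CPM in Yy1-/- Smc3+/- replicate 4, with the other 3 libraries at 8.09 to 8.35 CPM. Hlf was at 8.95 CPM in Yy1-/- replicate 1, with the others at 27.2 to 29.5 CPM, and that library also had the largest summed level of monocyte markers, 5643 CPM, while Yy1-/- replicate 2, with the next largest, 3887 CPM, had the highest Hlf. Hlf was at 112 CPM in Yy1+/+ replicate 2, with the others at 224 to 233 CPM. Tcf15 was at 21.1 CPM in the same library, with the others at 10.4 to 12.1 CPM. That library was the deepest, and it was lowest of its genotype in 6 of the 9 genes. Whether depth or markers play a part was not tested.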

How the results depend on the processing

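The number of the 9 genes called was 7 or 8 in both comparisons with Yy1+/+ under all 17 alternatives, and 0 between Yy1-/- Smc3+/- and Yy1-/-. Of 153 pairs of a gene and an alternative, 150 kept their direction and call in Yy1-/-, 3 gained the call (Gata3 with log2 TPM and without Yy1-/- replicate 3, Erg without Yy1+/+ replicate 2) and none reversed. In Yy1-/- Smc3+/- 147 kept it and 6 lost it, all of them Gata3. Leaving out 1 library gave 4887 to 6014 genes called over all genes in Yy1-/-, 3805 to 4828 in Yy1-/- Smc3+/- and 5 to 7 between them, and 7 to 8 of the 9 genes in each comparison with Yy1+/+. Between Yy1-/- Smc3+/- and Yy1-/-, the 6 genes called over all genes were 53 with DESeq2 and 307 without the libraries with residual Yy1 reads. The cause was not tested. Log2 TPM moved the median of all genes by over 0.1, to -0.21 in Yy1-/- and -0.13 in Yy1-/- Smc3+/-, and the calls of Gata3 there are relative to that shift. No weighted length passed after adjustment with a library left out either, where the exact test cannot reach 0.05 for that library's genotype, so this says nothing about stability. No paired analysis was possible because replicate numbers follow accession order and no label ties libraries across genotypes. Depth limits Tcf15 most, at 1 to 36 expected counts in Yy1-/- Smc3+/-.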

Other observations

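Apart from Gm16140, genes that share exon bases with the 9 had few reads. Mecomos, antisense to Mecom over 81 exon bases, had at most 14 expected counts in a library. Gm37818, on the strand of Meis1 and sharing 1029 exon bases with it, had 2.36 to 60.1 expected counts. Antisense genes that share exon bases with Prdm16 and Gata3 (B230104I21Rik and Gm13256) were listed at 0 in all libraries.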
